A study of Mus musculus with 2 samples.

Results

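The genes described here encode glutathione transferases, glutathione peroxidases, peroxiredoxins, superoxide dismutases and catalase, the enzymes that conjugate reactive compounds to glutathione or remove peroxides and superoxide. They were chosen by gene symbol alone, as every gene of a non-control spot named Gst, Mgst, Gpx or Prdx followed by a class letter or number, or named Sod1, Sod2, Sod3 or Cat. The rule took 43 of the 29607 gene names on the array and used no measured value, although the group itself was picked for description with earlier results of these data known. The cells were 661W, a mouse photoreceptor cell line, grown for 3 days in DMEM/F12 medium with serum, penicillin and streptomycin. The choline-deficient group was grown in medium without choline. The choline-sufficient group was grown in medium that the labels put at 8.98 g/L choline, a unit that may be wrong, since choline in this kind of medium is usually given in mg/L, so the concentration is uncertain. For each condition, Cy3-labelled total RNA went onto 1 Agilent single-colour array. The design text speaks of RNA pooled from 4 dishes and does not say whether that number is per condition. Each group was therefore 1 sample of a cell line, and the differences are given without replicates or p-values.

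Glutathione is a small thiol that serves as electron donor and conjugation partner in nearly all cells. Transferases attach it to electrophiles such as lipid aldehydes. Glutathione peroxidases use it to reduce hydrogen peroxide and lipid hydroperoxides, and peroxiredoxins do the same work with thioredoxin as the usual donor. Superoxide dismutases turn superoxide into hydrogen peroxide, which catalase breaks down in peroxisomes. Photoreceptors use much oxygen and hold many polyunsaturated lipids, and these enzymes are studied in the retina for that reason.

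The array holds 67 probes for these genes, and 58 of them were well above background on both arrays. Through these probes 38 of the 43 genes were measured. The other 5 (Gstt4, Gpx3, Gpx5, Gpx6 and Prdx6b) were well above background on neither array. A level is given as the log2 of the processed signal over the 75th percentile of its array, so 0 is a bright spot and each unit is a doubling of the signal. A difference is the level on the choline-deficient minus the level on the choline-sufficient array. The error after ± is the scanner software's own estimate for the difference, between 0.20 and 0.28 for these genes, and it holds no variation between cultures. A probe's level depends on its sequence, so no gene's level is read as above or below another's. On the arrays 70.7% and 68.5% of spots were well above background, and 0 spots were saturated. Of 13 photoreceptor markers 5 were well above background on both arrays, and those above background on neither included Opn1sw, Pde6b, Nrl, Crx and Rcvrn. The summed signal of the list, in multiples of the 75th percentile, was 0.278 on the choline-deficient and 0.211 on the choline-sufficient array.

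Several of these genes are close copies of each other, so what a probe reads matters to the results. The probes of the mu-class genes Gstm3, Gstm6 and Gstm7 shown here come from the same stretch of their transcripts, and capitals mark the bases that all 3 share.
Gstm3: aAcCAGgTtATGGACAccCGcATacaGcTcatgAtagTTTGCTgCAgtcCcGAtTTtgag
Gstm6: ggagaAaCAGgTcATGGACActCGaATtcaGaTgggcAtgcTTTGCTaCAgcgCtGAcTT
Gstm7: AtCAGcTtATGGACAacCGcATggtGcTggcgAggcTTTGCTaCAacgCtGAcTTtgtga
Over the 55 bases common to the 3 probes, 32 bases were the same. The closest pair, Gstm6 and Gstm7, matched at 41 of 55 aligned bases (74.5%), with 11 the longest identical run. These probes lie on the minus strand of mm9 at chr3:107769290-107770549 (Gstm3), chr3:107745052-107745111 (Gstm6) and chr3:107732073-107733247 (Gstm7). The first and the third span more than their 60 bases on the genome, so they cross an intron. The Gstm6 probe was close to background, at -8.00 and -8.02. Among the 67 probes, the longest run shared with a probe of another gene was 37 bases, for Sod1 and an unnamed transcript. It was 30 bases for Gsta2 and the predicted gene Gm10639. Per the files, 1 of the 2 Gstp1 probes also lists the Gstp2 transcript, and 1 of the 4 Prdx6 probes also lists that of Prdx6b. Whether the probes bind transcripts of related genes was not tested. Exons and UTRs were not annotated.

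On the choline-deficient array 16 of the 38 measured genes had a signal higher by 1.5-fold or more (42.1%). Over all 19816 measured genes this share was 14.8%. Lower by 1.5-fold were 3 of the 38 (7.89%), against 14.1% of all measured genes. The median difference was 0.40, a 1.32-fold higher signal, where the median of all measured genes was -0.10. The enzyme classes were not alike. Glutathione transferases made up 14 of the 16 higher genes, out of 23 measured, and had a median of 0.69 (1.62-fold higher). With normexp background correction 7 of the 23 were higher, 1 was lower and the median was 0.35. With only the brighter probes 5 of 10 were higher, 1 was lower and the median was 0.36. All genes measured by the brighter probes had shares of 12.2% higher and 15.5% lower. Of the 11 measured glutathione peroxidases and peroxiredoxins 0 were 1.5-fold apart in either direction, and their median was -0.07. That median was 0.17 after quantile normalization, 0.17 after cyclic loess and 0.20 with spike-in scaling. With these, 1, 1 and 3 of the 11 were higher and 0 lower. With median scaling 0 were higher and 1 lower, and with the brightest probe of each gene 1 was higher and 1 lower. In bulk RNA, fewer cells of a type and less RNA per cell cannot be told apart. At 2-fold, 8 of the 38 were higher and 2 lower, where the shares of all measured genes were 7.67% and 3.88%. Scaling the arrays to their medians or to spike-in probes gave 12 higher and 4 lower, or 20 higher and 2 lower. These scalings moved the 1.5-fold shares of all genes to 12.02% higher and 20.4% lower, or to 24.2% and 5.96%, with shifts of -0.12 and 0.27 in the median of all genes. With normexp background correction 8 were higher and 2 lower, against 8.42% and 10.3% of all genes. That method starts from the mean signal and the background reading of each spot, not from the processed signal, and adds an offset of 50. An offset shrinks the differences of dim probes, and its part in these changes was not tested.

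**Figure D1:**
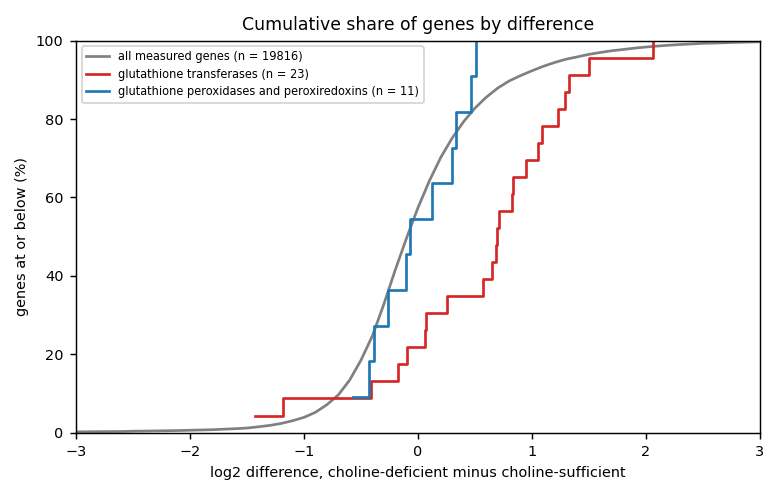
Cumulative share of genes (vertical axis, %) at or below a log2 difference between the choline-deficient and the choline-sufficient array (horizontal axis), for all 19816 measured genes, 23 transferases and 11 peroxidases and peroxiredoxins. The transferase curve lies to the right of that of all genes over most of its range, with a median of 0.69, while the peroxidase and peroxiredoxin curve, with a median of -0.07, ends at 0.51.

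Most of the higher genes were in the dimmer part of the measured genes described here. Split at the median of their own mean levels over both arrays, 13 of the 19 dimmer genes were 1.5-fold higher and 1 was lower. The dimmer part had median levels of -3.29 on the choline-deficient and -3.87 on the choline-sufficient array. Over all measured genes the medians were -1.74 and -1.82, so most of this part was dim for the arrays as well. It also held Sod3, at 0.35 and -2.38. Of the 19 brighter ones, 3 were higher and 2 lower. All measured genes in the same ranges of level had shares higher of 19.9% when dim and 9.99% when bright, and shares lower of 12.6% and 16.0%. Of the 23 measured transferases 15 were in the dimmer part, as were 2 of the 11 peroxidases and peroxiredoxins. The part of signal level in the difference between classes was not tested.

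**Figure D2:**
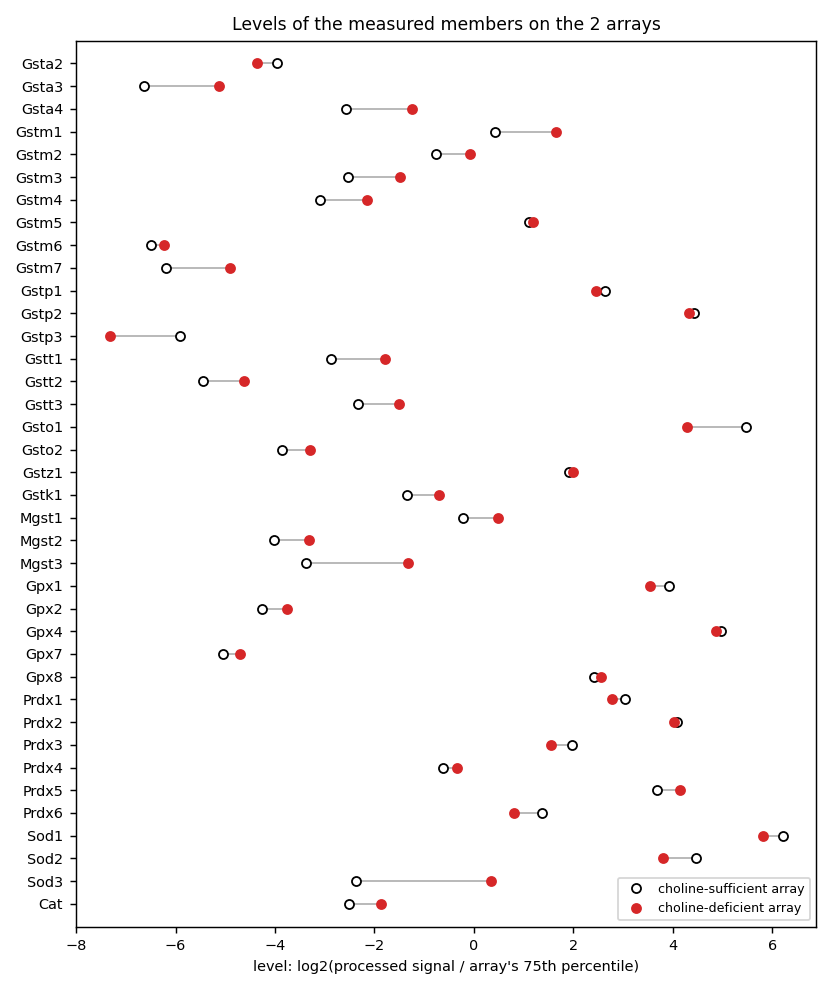
Levels of the 38 measured genes on both arrays, as log2 of the processed signal over the array's 75th percentile; the filled point is the choline-deficient array, the open point the choline-sufficient array, and each group is 1 array. The filled point lies to the right for the 3 theta-class and 3 microsomal transferases and, farthest, for Sod3, and to the left for Gstp3, Gsto1 and Sod2.

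The mu class, cytosolic transferases encoded side by side on chromosome 3, was mostly higher on the choline-deficient array, with a median of 0.95. Of its 7 genes 5 were higher by 1.5-fold or more and 0 lower, and all 7 differences were above 0, except that Gstm5 was at -0.05 with median scaling and Gstm6 at -0.11 after normexp correction and -0.03 with no filter on dim probes. Gstm1 had levels of 1.66 on the choline-deficient and 0.43 on the choline-sufficient array, a 2.34-fold difference (1.23 ± 0.20). Its 2 probes gave 1.23 and 1.22, although the files place the brighter of them on chromosome 5 and not on chromosome 3. Gstm7 had levels of -4.90 and -6.20 and was 2.45-fold higher (1.29 ± 0.22). Another of its probes, read on 8 spots of the choline-deficient and 10 of the choline-sufficient array, ran from -5.42 to -5.12 on the former and from -7.03 to -6.43 on the latter. These are repeat spots within 1 array per group, so their spread holds no variation between cultures.

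Gstm3 had levels of -1.48 and -2.53 and was 2.07-fold higher (1.05 ± 0.20). Gstm4 had levels of -2.15 and -3.10 and was 1.93-fold higher (0.95 ± 0.20). Each of these 2 genes rests on 1 measured probe, since its other probe was well above background only on the choline-deficient array. Gstm2 had levels of -0.08 and -0.76 and was 1.61-fold higher (0.68 ± 0.20), with its 3 probes between 0.66 and 0.73. The remaining mu genes were less than 1.5-fold apart. Gstm5 had levels of 1.18 and 1.11, a difference of 0.07 ± 0.20. Gstm6 had levels of -6.24 and -6.49 (0.26 ± 0.28), and its 4 measured probes ran from -0.14 to 0.73. In their order along chromosome 3 by probe position (Gstm5, Gstm7, Gstm6, Gstm3, Gstm2, Gstm1, Gstm4), the differences were 0.07, 1.29, 0.26, 1.05, 0.68, 1.23 and 0.95. Gstm5, at one end and the only one of the 7 whose probe lies on the plus strand, had the smallest. Calls of the mu class that ended after normexp correction were those of Gstm7 (0.31), Gstm4 (0.55) and Gstm2 (0.57). Gstm2 was at 0.57 with median scaling too. Gstm4 was at 0.51 with no filter on dim probes.

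In the alpha class 2 of 3 genes were higher by 1.5-fold or more and 0 lower. Its members include Gsta4, which conjugates the lipid peroxidation product 4-hydroxynonenal. Gsta4 had levels of -1.24 on the choline-deficient and -2.57 on the choline-sufficient array and was 2.51-fold higher (1.33 ± 0.20). Its probe crosses an intron at chr9:78046172-78047344 (mm9, plus strand).
Gsta4: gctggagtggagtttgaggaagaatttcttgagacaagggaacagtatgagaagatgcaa
The sequence is shown as an example of a probe that crosses an intron. This probe was also printed repeatedly and so has a within-array spread. Its 10 spots on the choline-deficient array ran from -1.41 to -1.17 and the 9 kept on the choline-sufficient array from -2.67 to -2.47, with SDs of 0.07 and 0.06. Both SDs are within 1 array and hold no variation between cultures. Gsta3 had dim levels of -5.13 and -6.63 and was 2.83-fold higher (1.499 ± 0.23), with its 2 probes at 1.85 and 1.15. The difference was 0.33 after normexp correction. Gsta2, also dim at -4.36 and -3.95, differed by -0.41 ± 0.21.

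The 3 measured theta-class genes were all at least 1.5-fold higher, with a median of 0.83. Gstt1, whose product acts on small halogenated compounds, was 2.13-fold higher (1.09 ± 0.20), but its 2 probes disagreed. The probe for NM_008185 (chr10:75246560-75246619, minus strand) had levels of 0.67 and -1.501, a 4.51-fold difference of 2.17. The probe for ENSMUST00000120177.7 (chr10:75259864-75259923, minus strand) had -4.23 on each array and a difference of 0.00. The gene's value is the mean of a large and an absent difference. Gstt3 had levels of -1.51 and -2.34 (0.83 ± 0.20) and Gstt2 levels of -4.63 and -5.46 (0.82 ± 0.21), or 1.78-fold and 1.77-fold higher. Gstt2 was at 0.12 after normexp correction.

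The microsomal transferases, membrane enzymes of a separate protein family, were all higher. Mgst3 differed most among the 23 measured transferases. It had levels of -1.33 and -3.39 and was 4.17-fold higher (2.06 ± 0.20), and 1.47% of all measured genes had a larger difference. One of its 2 probes spans 1811 bases of mm9 (chr1:169305625-169307435, minus strand).
Mgst3: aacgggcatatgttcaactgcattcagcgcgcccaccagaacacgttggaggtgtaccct
That probe gave 2.34 and the other 1.78, so both placed Mgst3 at more than 2-fold. Mgst1, found in the endoplasmic reticulum and the outer mitochondrial membrane, had levels of 0.49 and -0.21 and was 1.63-fold higher (0.71 ± 0.20), with its 2 probes at 0.70 and 0.72. Mgst2 had levels of -3.32 and -4.01 and was 1.62-fold higher (0.69 ± 0.21). It was just under 1.5-fold at 0.57 with median scaling and 0.58 after quantile normalization, and was at 0.35 after normexp correction.

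Of the other transferases some were lower. Gsto1, an omega-class enzyme with thioltransferase and dehydroascorbate reductase activity, had levels of 4.28 on the choline-deficient and 5.47 on the choline-sufficient array and was 2.27-fold lower (-1.18 ± 0.20). Over the 9 alternative processings its difference lay between -1.30 and -0.91. The deposited values and the settings that only choose probes repeat the main value, since Gsto1 has 1 probe. Gsto2 of the same class had levels of -3.29 and -3.87 and differed by 0.57 ± 0.20, just within 1.5-fold, and by 0.85 with spike-in scaling, past it. The pi-class gene Gstp3 was 2.69-fold lower (-1.43 ± 0.25) at dim levels of -7.33 and -5.90, and at -0.55 after normexp correction. Its bright relatives Gstp1 (2.46 and 2.64) and Gstp2 (4.32 and 4.42) differed by -0.17 ± 0.20 and -0.10 ± 0.20, values that were 0.10 and 0.17 with spike-in scaling. The kappa-class gene Gstk1, of mitochondria and peroxisomes, had levels of -0.69 and -1.35 and was 1.57-fold higher (0.65 ± 0.20), at 0.53 with median scaling and 0.58 after normexp. Gstz1, an enzyme of tyrosine breakdown, had levels of 1.98 and 1.92 (0.06 ± 0.20).

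**Figure D3:**
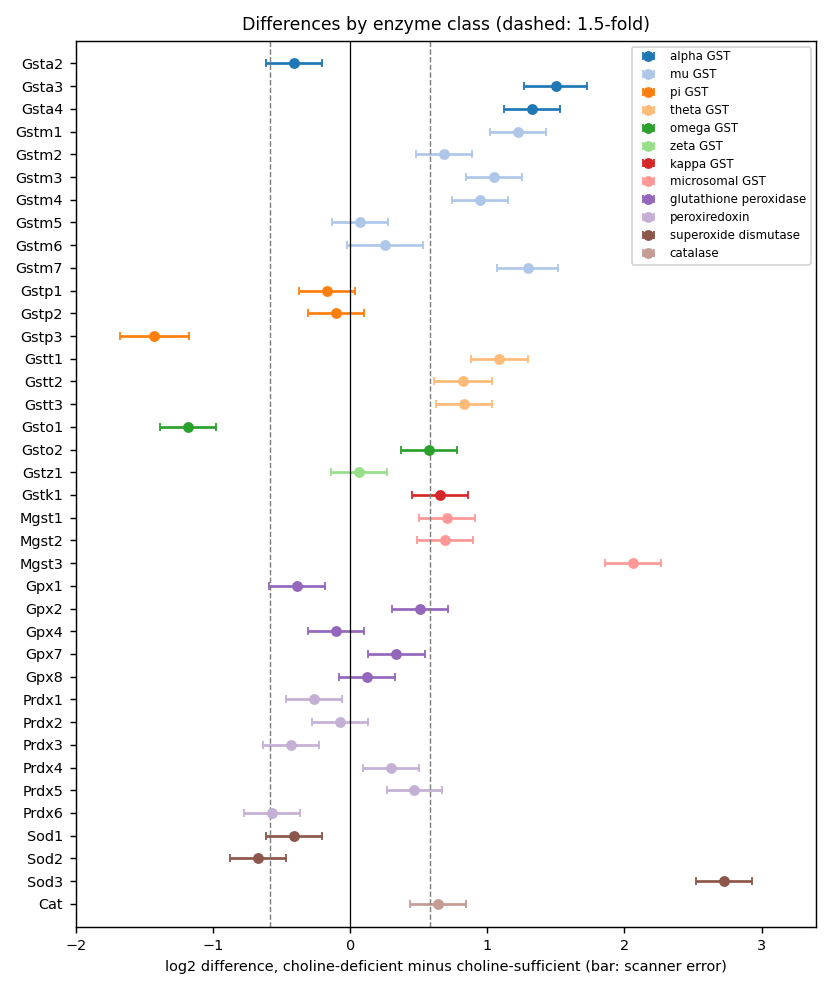
Log2 difference of each of the 38 measured genes, choline-deficient minus choline-sufficient (horizontal axis; 1 array per group), coloured by enzyme class; bars are the scanner software's error and dashed lines mark 1.5-fold. Points right of the right-hand line are 14 transferases, Sod3 and Cat, and Gstp3, Gsto1 and Sod2 lie left of the left-hand one.

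Glutathione peroxidases showed small differences. Of the 8 genes 5 were measured and 0 were 1.5-fold apart. Gpx4, which reduces phospholipid hydroperoxides within membranes, had levels of 4.88 and 4.98, a difference of -0.10 ± 0.20 that was 0.17 with spike-in scaling. Gpx1, the main cytosolic peroxidase, had 3.54 and 3.93 (-0.39 ± 0.20). Gpx8, of the endoplasmic reticulum, had 2.55 and 2.43 (0.13 ± 0.20). Gpx2, at -3.75 and -4.26, and Gpx7, at -4.70 and -5.04, differed by 0.51 ± 0.21 and 0.34 ± 0.21. With spike-in scaling these became 0.78 and 0.61, past 1.5-fold.

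The 6 measured peroxiredoxins were also within 1.5-fold with the main scaling, with a median of -0.17 and 4 of 6 values below 0, of which Prdx1 (0.01) and Prdx2 (0.20) were above 0 with spike-in scaling. Prdx5, found in mitochondria, peroxisomes and the cytosol, had levels of 4.15 on the choline-deficient and 3.68 on the choline-sufficient array, a difference of 0.47 ± 0.20 with both probes above 0. It came past 1.5-fold after quantile normalization (0.69), cyclic loess (0.71) and spike-in scaling (0.74). Prdx6, which reduces phospholipid hydroperoxides with glutathione and also acts as a phospholipase, had levels of 0.80 and 1.37 and differed by -0.57 ± 0.21. Of its 4 probes the 3 bright ones gave -0.78, -0.75 and -0.65 and the dim one -0.10, so the brightest probe alone placed Prdx6 at 1.71-fold lower. With median scaling the gene was at -0.69, past 1.5-fold, and with spike-in scaling at -0.30. The mitochondrial Prdx3 had levels of 1.55 and 1.98 (-0.43 ± 0.20). Its repeat spots within each array ran from 1.49 to 1.60 and from 1.96 to 2.001. The mainly cytosolic Prdx1 had levels of 2.77 and 3.04 (-0.27 ± 0.20) and Prdx2 levels of 4.02 and 4.09 (-0.07 ± 0.20). Prdx4, of the endoplasmic reticulum, had levels of -0.33 and -0.63 and differed by 0.30 ± 0.20, a mean of 0.65 for its bright probe and -0.06 for a dim probe to another transcript.

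**Figure D4:**
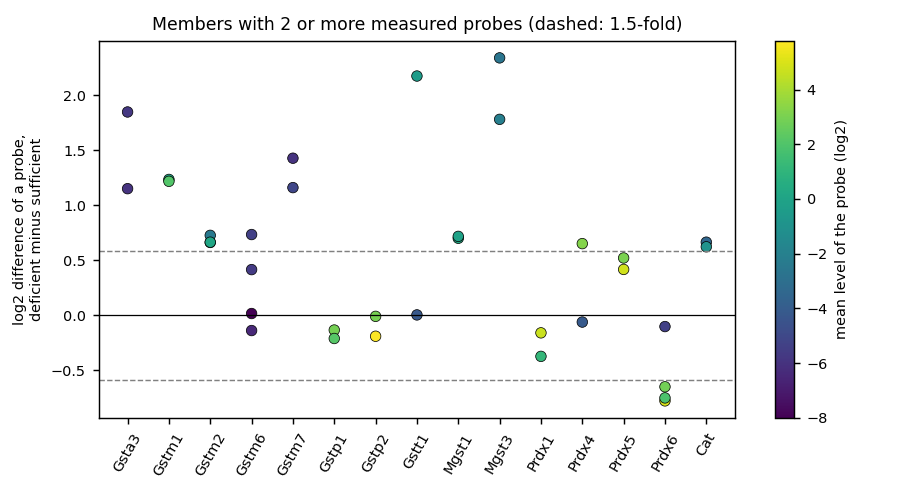
Log2 difference of each measured probe (vertical axis, choline-deficient minus choline-sufficient) for the 15 genes with 2 or more measured probes, coloured by the probe's mean level; dashed lines mark 1.5-fold. Probes of Gstm1, Gstm2, Mgst1 and Cat lie close together, while those of Gstt1 lie at 2.17 and 0.00 and those of Gstm6 on both sides of 0.

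The 3 superoxide dismutases differed in direction. Sod3, the secreted enzyme that binds to the extracellular matrix, had the largest difference of the 38 genes. Its levels were 0.35 on the choline-deficient and -2.38 on the choline-sufficient array, a 6.63-fold difference (2.73 ± 0.20), which 0.469% of all measured genes exceeded. It was read by 1 probe (NM_011435, chr5:52760685-52760744, plus strand of mm9) and lay between 2.47 and 3.00 over the alternatives. The mitochondrial Sod2 had levels of 3.803 and 4.47 and was 1.59-fold lower (-0.67 ± 0.20). It was at -0.43 after quantile normalization, -0.43 after cyclic loess and -0.40 with spike-in scaling, within 1.5-fold each time. The cytosolic Sod1 had levels of 5.81 and 6.21 (-0.41 ± 0.20). Catalase, Cat, had levels of -1.87 and -2.51 and was 1.56-fold higher (0.64 ± 0.20), with its probes at 0.66 and 0.62. It was at 0.52 with median scaling, 0.57 after quantile normalization and 0.44 after normexp correction.

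Summed signals of markers of other cell types also differed between these arrays. A sum takes the brightest probe of each marker, also below background, so a few bright markers can set it. Single markers were not compared. The summed signal of 7 fibroblast markers, in multiples of the 75th percentile, was 77.1 on the choline-deficient and 9.06 on the choline-sufficient array, and 6 of the 7 were above background on both (Lum on neither). For 7 Muller glia markers the sums were 34.2 and 16.3, with Kcnj10 and Sox2 above background on neither array. The sums were 2.66 and 1.91 for 5 immune markers, 1.21 and 0.741 for 6 retinal ganglion cell markers, and 0.646 and 0.737 for 3 endothelial markers. Their part in the differences of Sod3 and the transferases was not tested.

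A companion list of 52 genes held genes of glutathione, thioredoxin, selenium and NADPH supply together with regulators, exporters and relatives of the enzymes. With 49 of them measured, 7 were higher by 1.5-fold (14.3%) and 7 lower (14.3%), close to the shares of all measured genes, and the median was 0.02. Slc7a11, the cystine importer, had levels of -1.498 and -0.62 and was 1.84-fold lower (-0.88 ± 0.20). Gclc, the catalytic subunit of the enzyme limiting glutathione synthesis, was 1.81-fold lower (-0.86 ± 0.20), while its partner Gclm differed by -0.52 ± 0.20, Gss by 0.13 ± 0.20 and the glutathione reductase gene Gsr by -0.46 ± 0.20. The exporter gene Abcc4 was 2.52-fold lower.

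In the thioredoxin branch, Txnrd1, the cytosolic thioredoxin reductase, was 2.05-fold lower (-1.03 ± 0.20) and Txnrd2, the mitochondrial one, 2.05-fold higher (1.03 ± 0.22). Txn2 was 1.56-fold lower, while Txn1 differed by -0.28 ± 0.20 and Srxn1, which repairs overoxidised peroxiredoxins, by -0.35 ± 0.20. Glrx, a glutaredoxin, was 2.91-fold higher. Of the sestrins, Sesn1 was 2.10-fold higher and Sesn2 1.57-fold lower. The NADPH-producing genes Idh1 and G6pdx were 3.47-fold and 1.501-fold higher. The selenium carrier gene Selenop was 2.37-fold higher and Lrp8, which encodes a receptor for it, 1.88-fold higher. Eef1g, whose product carries a domain related to transferases, was 1.72-fold lower. Nfe2l2, the transcription factor NRF2, differed by 0.02 ± 0.20 and its inhibitor Keap1 by 0.43 ± 0.20. These last 2 were chosen after their values were seen. The genes Ggt1, Hpgds and Gdap1 were well above background on neither array.

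NRF2 binds antioxidant response elements, which many transferase genes carry. The core TGACNNNGC was searched on both strands of the RefSeq promoters (GRCm38.p6, 250 bases before to 50 after each start), which matched 38 of the 43 genes. Of all 32851 promoters 12.4% held it, and of the 50 promoters of these genes 6 did (12%), each in a different gene. The matches are shown with 10 bases on each side and the core in capitals, to let them be set against the differences.
Gsta3: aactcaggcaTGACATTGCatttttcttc
Gstm7: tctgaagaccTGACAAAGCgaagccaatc
Mgst1: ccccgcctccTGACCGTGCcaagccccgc
Gstm5: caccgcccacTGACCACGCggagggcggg
Prdx1: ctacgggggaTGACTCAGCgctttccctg
Sod1: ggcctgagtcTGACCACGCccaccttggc
The first 3 belong to genes that were 1.5-fold higher (1.499, 1.29 and 0.71), and the last 3 to genes within 1.5-fold (0.07, -0.27 and -0.41). By position they are chr1:21240454-21240482 (plus strand), chr3:107931725-107931753 (minus), chr6:138140461-138140489 (minus), chr3:107895802-107895830 (plus), chr4:116685456-116685484 (minus) and chr16:90220696-90220724 (minus). Of the 38 genes with a promoter 6 held the core (15.8%), and by call 3 of 13 higher, 0 of 3 lower and 3 of 18 within 1.5-fold did. The rest of the 38 (Gstt4, Gpx3, Gpx5 and Gpx6) were not measured, so they have no call. A gene can have several promoters, so these shares of genes cannot be set against the 12.4% of promoters. The share over all genes was not counted. A match of letters is a description and does not show that a factor binds there. Promoters of Gsta4, Gstt2, Prdx6, Prdx6b and Sod3 were not in the table.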

How the data were processed

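The submitters' processing notes name Agilent Feature Extraction 12.1.1.1 as the scanner software. The deposited scanner files give an intensity per spot, from which background had been subtracted and spatial trends removed, per the file headers, with probes placed on mm9. The deposited value table holds a ratio of that signal to 1 constant per array, 1609 and 1280, which lie at the arrays' 75th percentiles. Its medians are 0.0358 and 0.0337, with linear scale, no centring and the direction of the scanner values.

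Spots marked as outliers (92 and 86) were left out, spots of a probe averaged, and genes took the mean of their probes well above background on both arrays (26461 of 39426). With 1 array per group, genes were counted at 1.5-fold and no test was run. Alternatives used limma 3.58.1 in R 4.3.3, and counts used pandas 2.3.3 in Python 3.11.15, after a test on simulated data. All 43 genes are named. Companion genes are named when 1.5-fold apart, with 8 fixed ones. The members and lists were chosen with earlier results of these data known.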

Additional observations from a re-analysis of the deposited data

How the results depend on the processing

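The count of genes at least 1.5-fold higher was 16, and 8 each after normexp background correction, with only the brighter measured probes (23 of the genes were then measured, and 12.2% of all genes were higher and 15.5% lower) and at 2-fold. The median difference of 0.40 was 0.19 after normexp, 0.67 with spike-in scaling and 0.065 with the brighter probes. Spike-in scaling shifted all genes by a constant 0.27, and normexp correction started from other intensities and added an offset. The brighter probes left 10 transferases and 9 peroxidases and peroxiredoxins measured. The part of each of these in the changes was not tested. Of the companion genes 7 were lower, but 4 after cyclic loess, 4 with spike-in scaling and 2 at 2-fold. All 19 genes called in either direction kept their sign in the settings that measured them. For some settings this was fixed in advance. Median and spike-in scaling shift all genes by -0.12 and 0.27, too little to change the sign of a gene 1.5-fold apart. The deposited values repeat the main scaling. In every setting that measured them, 9 genes (Gsta4, Gstm1, Gstm3, Gstt1, Gstt3, Mgst1, Mgst3, Gsto1 and Sod3) were past 1.5-fold. Gsta4, Gstm3, Gstt3 and Mgst3 were not measured among the brighter probes. Of the single differences under the alternatives, 251 moved by less than the scanner error and 76 by more. Some of both counts were fixed in advance. The deposited values repeat the main scaling, and median scaling moves each gene by -0.12, less than its scanner error. Spike-in scaling moves each by 0.27, more than the scanner error of all but Gstm6. For a gene with 1 probe, such as Gsto1 or Sod3, the settings that only choose probes repeat the main value too. The number of arrays limits every comparison. No paired analysis was possible because each group holds 1 array.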
